A study of Homo sapiens with 9 samples.

Results

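The V0 sector is the membrane-embedded part of the vacuolar proton pump (V-ATPase), and the genes described here are 10 of the 46427 in the count table. They were taken by symbol and are the a subunit genes ATP6V0A1, ATP6V0A2, ATP6V0A4 and TCIRG1, the proteolipid genes ATP6V0C and ATP6V0B, the d subunit gene ATP6V0D1, the e subunit genes ATP6V0E1 and ATP6V0E2, and ATP6AP1, which encodes an accessory subunit. The membership covers the sector that holds the binding site of bafilomycin A1 (BafA1), the drug given to the cells.

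Messenger RNA was sequenced from a single cell line, H9, which is an established line of human embryonic stem cells (hESC). BafA1 NPC were neural progenitor cells at day 11 of a midbrain dopaminergic differentiation that had been exposed to BafA1 at 10 nM in treatments of 6 h. Control NPC were untreated progenitors at the same day, and hESC were the untreated stem cells, with 3 libraries in each group. Both NPC groups had been differentiated with 200 nM LDN193189, an inhibitor of BMP receptors, and 10 µM SB431542, an inhibitor of TGF-beta receptors. They had also received 2 µM purmorphamine, a Hedgehog agonist, and 3 µM CHIR99021, a GSK3 inhibitor that activates WNT signalling, per the labels' protocols. The protocols list several windows of days for the drug, and they do not say which window the sequenced cells had. The libraries of a group are called biological replicates, without a statement that they came from separate differentiations, so that p-values measure only the spread between these samples.

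The V-ATPase couples ATP hydrolysis in its cytosolic V1 sector to rotation of a ring of proteolipid subunits in V0, which carries protons past the a subunit into lysosomes, endosomes, Golgi and secretory vesicles. BafA1 binds the proteolipid ring and stops this rotation, which raises lysosomal pH and blocks the clearance of autophagosomes. The a subunit exists as several isoforms that direct the pump to different membranes, so that the isoform genes expressed in a cell bear on where protons are pumped.

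Promoters were compared first, because the MiT/TFE transcription factors, which adjust lysosomal genes to lysosomal stress, bind elements built around the letters CACGTG (an E-box). RefSeq (GRCh38.p14) gave 14 promoter windows for 9 of the 10 genes, each of 300 bases with 250 before the gene start and 50 from it on; ATP6V0E1 had no entry. The E-box stood in 4 of the 14 windows (28.6%), belonging to ATP6V0B, ATP6V0D1 and ATP6V0E2, against 7.26% of all 35116 windows and 8.82% of those of tested genes. Counted by gene, it stood in 3 of 9, against 1716 of the 14659 tested genes with a window. The 3 windows shown are those that carry it, with the E-box in capitals; each is written 5′ to 3′ on the strand of its gene. For ATP6V0E2 the first of a pair of overlapping windows that share a single E-box is given.
ATP6V0B (chr1:43974710-43975009, plus strand): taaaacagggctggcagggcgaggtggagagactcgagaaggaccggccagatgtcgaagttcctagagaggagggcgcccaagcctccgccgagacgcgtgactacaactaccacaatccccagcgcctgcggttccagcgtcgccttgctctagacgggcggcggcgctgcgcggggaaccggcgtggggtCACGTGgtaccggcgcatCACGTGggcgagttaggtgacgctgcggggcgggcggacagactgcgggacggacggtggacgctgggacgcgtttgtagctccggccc
ATP6V0D1 (chr16:67481108-67481407, minus strand): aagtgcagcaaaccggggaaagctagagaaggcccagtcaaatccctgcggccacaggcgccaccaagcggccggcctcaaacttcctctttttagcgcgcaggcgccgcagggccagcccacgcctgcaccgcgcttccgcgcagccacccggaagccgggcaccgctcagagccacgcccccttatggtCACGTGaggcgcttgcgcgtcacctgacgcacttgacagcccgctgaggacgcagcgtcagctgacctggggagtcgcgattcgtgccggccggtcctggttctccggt
ATP6V0E2 (chr7:149872714-149873013, plus strand): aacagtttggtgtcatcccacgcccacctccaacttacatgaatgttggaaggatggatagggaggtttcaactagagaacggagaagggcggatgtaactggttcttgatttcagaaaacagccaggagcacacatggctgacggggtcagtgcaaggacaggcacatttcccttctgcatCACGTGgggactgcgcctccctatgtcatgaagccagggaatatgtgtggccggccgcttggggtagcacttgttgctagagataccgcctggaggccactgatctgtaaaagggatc
The first base of the E-box lay 57 and 39 bases before the gene start in ATP6V0B, 59 bases before it in ATP6V0D1 and 68 bases before it in this window of ATP6V0E2. The letters CCAAT, searched on both strands like the others, stood in 5 of the 14 windows (35.7%), close to the 34.6% of all windows. The GC box, GGGCGG, stood in 12 of the 14 (85.7%), against 45.0% of all windows and 61.8% of those of tested genes. By gene, CCAAT stood in 5 of 9 and the GC box in 8 of 9, against 6117 and 10519 of the 14659 tested genes. The motifs searched do not contain each other. ATP6V0A1 and ATP6V0A2, the isoform genes whose levels moved in opposite directions in the data below, both held CCAAT in the reverse orientation (capitals), beginning 77 and 65 bases before their gene starts.
ATP6V0A1 (chr17:42458628-42458927, plus strand): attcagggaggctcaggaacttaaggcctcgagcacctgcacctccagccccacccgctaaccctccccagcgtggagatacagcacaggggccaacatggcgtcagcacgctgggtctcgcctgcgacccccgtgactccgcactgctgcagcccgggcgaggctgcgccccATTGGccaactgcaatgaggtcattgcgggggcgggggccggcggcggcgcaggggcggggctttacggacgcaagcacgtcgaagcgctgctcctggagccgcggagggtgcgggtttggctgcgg
ATP6V0A2 (chr12:123712103-123712402, plus strand): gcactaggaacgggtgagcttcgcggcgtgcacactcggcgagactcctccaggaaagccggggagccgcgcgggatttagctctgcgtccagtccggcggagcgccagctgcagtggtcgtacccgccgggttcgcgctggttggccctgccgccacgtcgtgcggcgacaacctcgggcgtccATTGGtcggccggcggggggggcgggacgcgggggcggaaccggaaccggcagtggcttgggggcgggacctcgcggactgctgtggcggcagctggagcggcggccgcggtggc
These matches describe letters in a window, and binding was not measured. Of the E-box genes, ATP6V0D1 was lower in BafA1 NPC than in control NPC, while ATP6V0B and ATP6V0E2 did not pass the test.

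**Figure D1:**
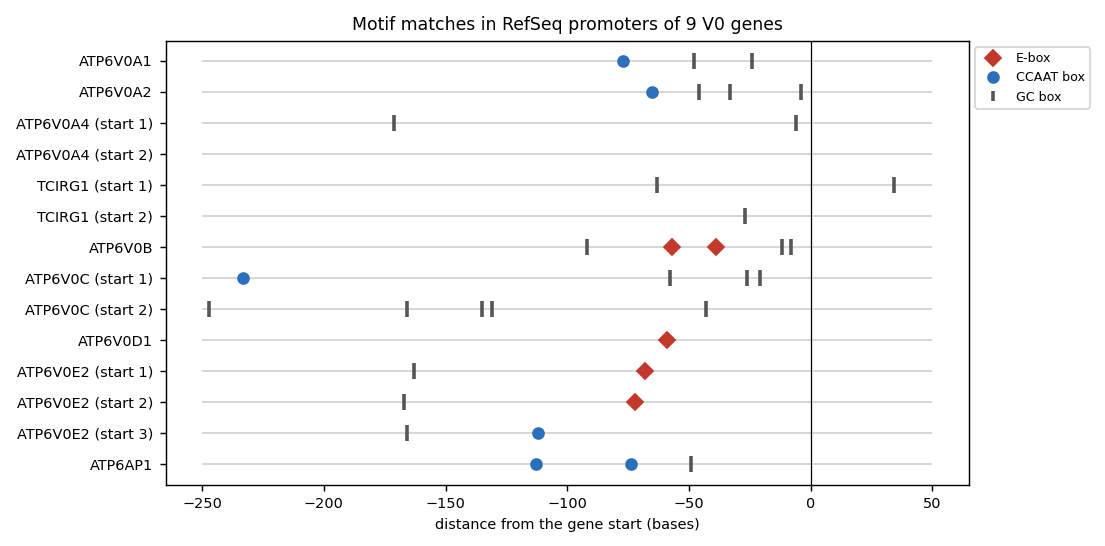
Positions of the 3 motifs in the 14 promoter windows of 9 V0 genes; the horizontal axis is the distance from the gene start in bases, and each row is a window. The E-box is seen in the rows of ATP6V0B, ATP6V0D1 and ATP6V0E2, between 72 and 39 bases before the start, while GC boxes stand in 12 of the 14 rows.

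Library totals were 43124679 to 69703791 counts in BafA1 NPC, 49479733 to 56054194 in control NPC and 55706968 to 66544642 in hESC. The labels were set against markers. POU5F1 averaged 0.00607 CPM (counts scaled by library size and TMM) in BafA1 NPC, no count in control NPC and 2285 CPM in hESC. LMX1A, a midbrain floor plate factor, averaged 74.7, 77.3 and 0.110 CPM in the same groups. NANOG averaged 0.0894, 0.229 and 95.8 CPM, SOX1 15.0, 23.9 and 0.0236 CPM and FOXA2 163, 101 and 62.3 CPM in that order of groups. Of the 10 neural progenitor markers, 9 were called higher and 1 lower in control NPC than in hESC, against 33.0% and 31.6% of all genes. The lower gene was SOX3, at 7.45 CPM in control NPC and 17.0 CPM in hESC. PAX6 and HES5 averaged 0.380 and 0.381 CPM in control NPC, with no count in hESC. MSX1 averaged 23.0 CPM in control NPC and 0.149 CPM in hESC. These genes, SOX1 and LMX1A passed the filter only through the NPC groups, so that their rises add nothing to the count of 9. The list summed to 947 to 1287 CPM in BafA1 NPC, 914 to 1107 in control NPC and 402 to 445 in hESC. Mesenchymal markers, all 10 detected in both NPC groups, summed to 3018 to 3282 CPM in BafA1 NPC, 1567 to 2559 in control NPC and 111 to 118 in hESC (LUM at 0). Of these markers, 5 were called higher and 3 lower in BafA1 NPC than in control NPC, against 20.8% and 20.7% of all genes. In that comparison 5 of the 10 neural progenitor markers were called higher and 1 lower. COL1A1, a collagen gene, averaged 1963 CPM in BafA1 NPC and 1211 in control NPC, TAGLN, an actin-binding protein gene, 706 and 437 CPM, and LUM, which encodes lumican, 10.2 and 32.3 CPM in that order of groups. The 10 pluripotency markers summed to 843 to 911 CPM in BafA1 NPC (TDGF1 at 0), 620 to 673 in control NPC (POU5F1, TDGF1 and PRDM14 at 0) and 7526 to 7960 in hESC. Most of the sum in the NPC groups was LIN28A, which averaged 786 CPM in BafA1 NPC, 537 in control NPC and 1176 in hESC. DPPA4 averaged 53.6, 63.9 and 618 CPM and DNMT3B 24.2, 37.4 and 915 CPM in the same groups. Neuron markers, 10 in number, summed to 746 to 787 CPM in BafA1 NPC, 694 to 778 in control NPC and 279 to 318 in hESC. Endoderm and epithelial markers, also 10, summed to 795 to 1092 CPM in BafA1 NPC (GATA4 at 0) and 522 to 711 in control NPC (SOX17 and GATA4 at 0). In hESC they summed to 1937 to 2157 CPM (SOX17 and GATA6 at 0). Mitochondrial transcripts held 2.00 to 2.21% of counts in BafA1 NPC, 2.97 to 3.17% in control NPC and 3.79 to 4.64% in hESC. The part of these markers and shares in the results was not tested, and in bulk RNA a change in the share of a cell type and a change of RNA per cell cannot be told apart. Control NPC also stood apart in base composition: across genes, the deviation of a library from the mean of all libraries correlated with GC content at a Spearman rho of -0.0193 to 0.0496 in BafA1 NPC, -0.331 to -0.137 in control NPC and 0.0959 to 0.174 in hESC. The lowest value was that of control replicate 3.

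Levels per transcript length (FPKM, from the authors' tables) ordered the V0 genes over a wide range (the plot of FPKM by library). ATP6V0C, the gene of the main proteolipid c, was highest in each group, with a mean ± SD of 87.8 ± 2.75 FPKM in BafA1 NPC, 84.4 ± 15.8 FPKM in control NPC and 87.6 ± 3.05 FPKM in hESC (n = 3 each here and below). ATP6V0B, the c″ proteolipid gene, came next with 49.4 ± 5.07, 58.9 ± 10.4 and 45.8 ± 1.54 FPKM in the same groups. In control NPC the ranges of these neighbours overlapped, while in BafA1 NPC and hESC they did not. ATP6V0B in turn overlapped the next gene down, ATP6AP1 in BafA1 NPC and ATP6V0E1 in control NPC, but not in hESC.

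The middle of the order was taken by ATP6AP1, ATP6V0E1, ATP6V0E2, ATP6V0D1 and ATP6V0A1. In BafA1 NPC ATP6AP1 (42.6 ± 2.27 FPKM) and ATP6V0E1 (37.9 ± 5.40 FPKM) overlapped in range, as did ATP6V0E2 (22.2 ± 0.755 FPKM) with ATP6V0D1 (20.5 ± 1.55 FPKM), and ATP6V0D1 with ATP6V0A1 (18.5 ± 2.52 FPKM). In control NPC the order was ATP6V0E1 (51.7 ± 3.45 FPKM), ATP6AP1 (38.3 ± 4.14 FPKM), ATP6V0D1 (33.8 ± 7.30 FPKM), ATP6V0E2 (27.0 ± 4.09 FPKM) and ATP6V0A1 (15.9 ± 0.807 FPKM). In hESC it was ATP6V0E1 (28.9 ± 0.837 FPKM), ATP6V0D1 (19.7 ± 0.850 FPKM), ATP6AP1 (19.5 ± 0.605 FPKM), ATP6V0E2 (9.26 ± 0.508 FPKM) and ATP6V0A1 (9.19 ± 0.193 FPKM). Among these 5 genes, neighbours whose ranges overlapped in control NPC were ATP6AP1 with ATP6V0D1 and ATP6V0D1 with ATP6V0E2, and in hESC ATP6V0D1 with ATP6AP1 and ATP6V0E2 with ATP6V0A1.

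The a subunit genes other than ATP6V0A1 were the lowest. TCIRG1 averaged 6.19 ± 0.937 FPKM in BafA1 NPC, 3.67 ± 0.0773 FPKM in control NPC and 4.33 ± 0.206 FPKM in hESC. ATP6V0A2 averaged 1.66 ± 0.144, 3.87 ± 0.315 and 6.40 ± 0.239 FPKM in those groups, so that it stood below TCIRG1 in BafA1 NPC, overlapped it in control NPC and stood above it in hESC. ATP6V0A4 was at 0.00659 ± 0.0114, 0.00596 ± 0.0103 and 0.262 ± 0.125 FPKM.

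**Figure D2:**
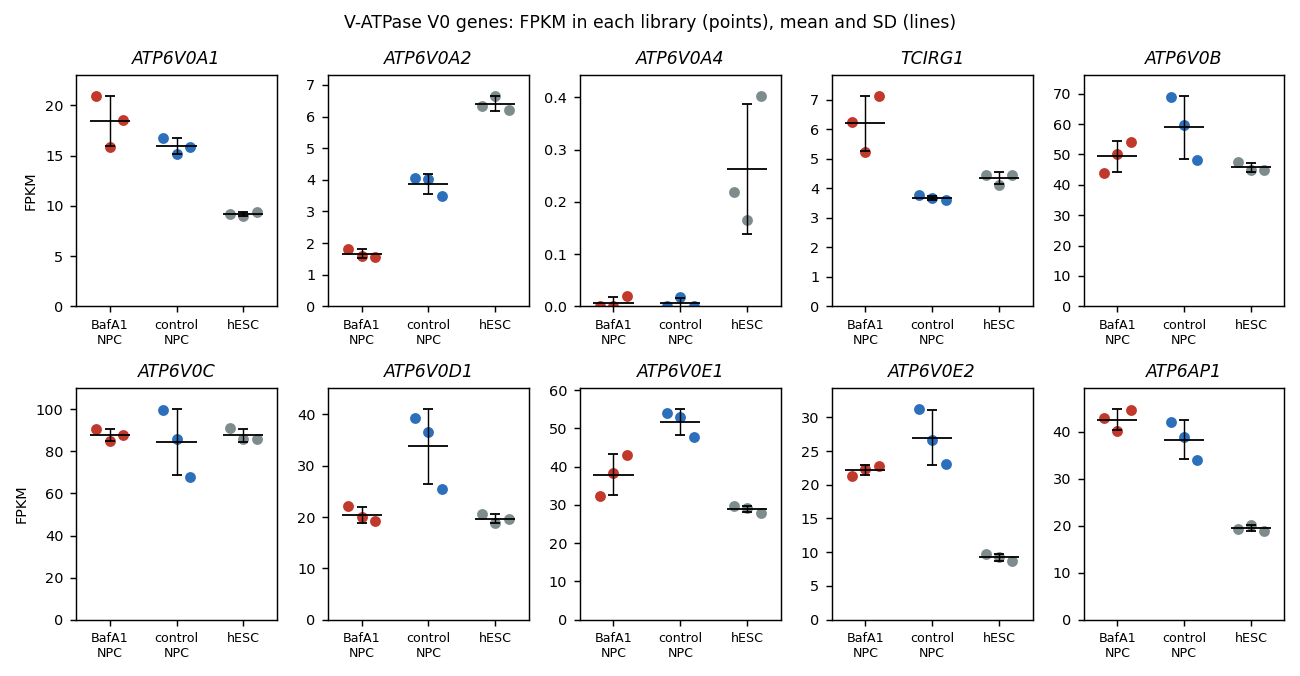
FPKM of each V0 gene (vertical axis, from 0, own scale per panel) in the 3 libraries of BafA1 NPC, control NPC and hESC; points are libraries, horizontal lines the mean and error bars the SD. ATP6V0A2 falls into 3 separate levels (1.66, 3.87 and 6.40 FPKM on average), while the libraries of ATP6V0C overlap in all 3 groups.

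The comparison of BafA1 NPC with control NPC asks how transcripts of the pump's membrane sector stood in progenitors that had met its inhibitor. The V0 genes were called in both directions: 3 were higher (ATP6V0A1, TCIRG1, ATP6AP1), 3 were lower (ATP6V0A2, ATP6V0D1, ATP6V0E1) and 4 did not pass the test at an adjusted p under 0.05. Of all 20685 genes tested, 41.5% were called, 20.8% higher and 20.7% lower, which is the background for 6 of 10. The median log2 fold change of the 10 genes was 0.05, against 0.00 over all genes tested. It includes ATP6V0A4, which lies near the counting floor in both groups. Among the other V0 genes the middle value was that of ATP6V0B, -0.11. In CPM, 3 V0 genes were higher and 3 lower without overlap between the libraries of the groups, against 49.2% of all genes in either direction, 24.1% higher and 25.1% lower. In FPKM the count was 1 higher and 4 lower, against 48.7% of all genes in either direction, 16.7% higher and 32.0% lower.

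ATP6V0A2 showed the largest change. It encodes the a2 isoform, which acts in Golgi and early endosomes, and lies on chromosome 12 at 123712353 to 123761755. It had 13.5, 13.3 and 12.1 CPM in BafA1 NPC, against 28.4, 28.3 and 25.2 CPM in control NPC. The libraries of the groups lay far apart, and the gene fell by 1.08 ± 0.09 on the log2 scale, 2.11-fold lower (edgeR quasi-likelihood test, adjusted p = 1.48e-05). The call was kept in all 11 other settings, with log2 fold changes of -1.20 to -0.87, and without each library in turn.

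ATP6V0A1 moved the other way. It encodes the a1 isoform, the form of neurons and synaptic vesicles that is also found in lysosomes, and lies on chromosome 17 at 42458878 to 42522579. It had 102, 84.6 and 92.3 CPM in BafA1 NPC, against 76.8, 68.8 and 74.2 CPM in control NPC, with no overlap. Its log2 fold change was 0.35 ± 0.09, 1.27-fold higher (edgeR, adjusted p = 0.00720). With scaling by library size alone the call was lost (log2 fold change 0.22, edgeR adjusted p = 0.0903), and with limma on log2(FPKM + 1) it was 0.19 (adjusted p = 0.182); in FPKM the lowest BafA1 library, at 15.9, lay within the control range of 15.2 to 16.8.

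TCIRG1 rose as well. It encodes the a3 isoform, found in lysosomes and in the ruffled border through which osteoclasts acidify bone, and lies on chromosome 11 at 68039025 to 68053762. It had 23.4, 21.9 and 26.3 CPM in BafA1 NPC, against 15.1, 15.8 and 12.1 CPM in control NPC, and no library of one group reached the range of the other. The log2 fold change was 0.73 ± 0.13, 1.66-fold higher (edgeR, adjusted p = 9.32e-04), and it was called in all 11 other settings (0.42 to 0.75) and without each library in turn (0.62 to 0.81).

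The transcripts counted for TCIRG1 differed between libraries. The count per unit of FPKM, which follows the mean length of the transcripts counted, spread by 33.8% between the highest and lowest of the 9 libraries, against 0.0392 to 4.88% for the other 8 V0 genes with enough counts and a 99th percentile of 0.362% in genes with 1 transcript. Relative to its median, this quantity was 100, 102 and 97.3% in BafA1 NPC, 116, 126 and 94.8% in control NPC and 97.3, 94.0 and 112% in hESC. TCIRG1 overlaps CHKA, a choline kinase gene on the opposite strand, and whether counting used strand is not stated; CHKA averaged 27.8 ± 2.19 CPM in BafA1 NPC and 44.1 ± 5.59 CPM in control NPC, the reverse order of TCIRG1. Markers of osteoclasts and renal intercalated cells, 9 in number, summed to 6.96 to 8.87 CPM in BafA1 NPC (DCSTAMP and FOXI1 at 0), 6.95 to 8.74 CPM in control NPC (SLC4A1 and FOXI1 at 0) and 47.7 to 53.9 CPM in hESC (FOXI1 at 0).

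ATP6V0A4 lay near the counting floor in the progenitors. It encodes the a4 isoform of renal intercalated cells and lies on chromosome 7 at 138706294 to 138798196. It had 0, 0 and 6 counts in BafA1 NPC and 0, 5 and 0 counts in control NPC, near the floor of 3 counts per library, and no fold is given between them. It entered the fit only through hESC, where it had 58, 37 and 94 counts.

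The proteolipid genes, whose products form the ring that BafA1 binds, did not pass the test. ATP6V0C (chromosome 16, 2513726 to 2520218) had 118, 121 and 116 CPM in BafA1 NPC, against 121, 103 and 83.9 CPM in control NPC. The BafA1 libraries lay close together and at the upper end of the wider control range. The log2 fold change was 0.21 ± 0.11 (edgeR, adjusted p = 0.159). It became 0.34 and was called without control replicate 1 (edgeR adjusted p = 0.0221), and it was -0.10 once GC and length trends were removed (edgeR adjusted p = 0.458), so that its direction depended on that step; its transcripts are 65.1% GC.

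ATP6V0B (chromosome 1, 43974960 to 43978295) had 54.0, 66.5 and 68.1 CPM in BafA1 NPC, against 78.1, 68.0 and 57.2 CPM in control NPC. The groups overlapped, with a log2 fold change of -0.11 ± 0.12 (edgeR, adjusted p = 0.496), which was 0.00 without BafA1 replicate 1 or without control replicate 1. With GC and length trends removed it was -0.27 and passed the test (edgeR adjusted p = 0.0468).

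ATP6V0D1 fell. It encodes the d1 subunit, which links the proteolipid ring to the central stalk of V1, and lies on chromosome 16 at 67438019 to 67481157. It had 43.4, 42.7 and 38.1 CPM in BafA1 NPC, against 71.3, 65.6 and 47.1 CPM in control NPC. The groups did not overlap, although control replicate 3 lay nearer to the BafA1 libraries than to the other controls. The log2 fold change was -0.57 ± 0.13, 1.48-fold lower (edgeR, adjusted p = 0.00493), and the call held in all 11 other settings (-0.70 to -0.55) and without each library in turn (-0.73 to -0.45).

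The e subunit genes encode small membrane proteins at the edge of the a subunit. ATP6V0E1 (chromosome 5, 172983771 to 173035445) had 54.8, 70.9 and 74.0 CPM in BafA1 NPC, against 85.4, 82.6 and 76.5 CPM in control NPC. The groups did not overlap, and the gene was 1.22-fold lower, with a log2 fold change of -0.29 ± 0.11 just past the threshold (edgeR, adjusted p = 0.0467). The call was lost in 6 of 11 other settings, among them DESeq2-type size factors (edgeR adjusted p = 0.0541) and removal of GC and length trends (-0.26, edgeR adjusted p = 0.0582), and in 6 of 9 fits without 1 library. Those were the fits without BafA1 replicate 1 (log2 fold change -0.16, edgeR adjusted p = 0.134), without control replicate 1 (adjusted p = 0.125) or 2 (adjusted p = 0.117), and without any of the hESC replicates (edgeR adjusted p = 0.0651 to 0.0673).

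ATP6V0E2 (chromosome 7, 149872964 to 149880713) had 69.4, 79.9 and 75.5 CPM in BafA1 NPC, against 98.3, 80.4 and 71.5 CPM in control NPC. The groups overlapped, with a log2 fold change of -0.15 ± 0.11 (edgeR, adjusted p = 0.297), and with GC and length trends removed it was -0.33 and called (edgeR adjusted p = 0.0231). Its antisense neighbour ATP6V0E2-AS1, whose reads cannot be told apart if strand was not used, averaged 1.71 ± 0.231 CPM in BafA1 NPC, 4.47 ± 0.659 CPM in control NPC and 1.33 ± 0.188 CPM in hESC.

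ATP6AP1 encodes Ac45, a glycoprotein in the lumenal part of V0 that takes part in assembly of the pump, and lies on the X chromosome at 154428677 to 154436516. It had 106, 108 and 111 CPM in BafA1 NPC, against 96.7, 87.9 and 79.4 CPM in control NPC. The groups did not overlap, and the log2 fold change was 0.30 ± 0.09, 1.23-fold higher (edgeR, adjusted p = 0.0144). The call was lost without control replicate 2 (log2 fold change 0.30, edgeR adjusted p = 0.0538), with scaling by library size alone (0.17, edgeR adjusted p = 0.114) and with GC and length trends removed (0.13, edgeR adjusted p = 0.189), as it was with limma on log2(FPKM + 1), which gave 0.15 (adjusted p = 0.223).

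**Figure D3:**
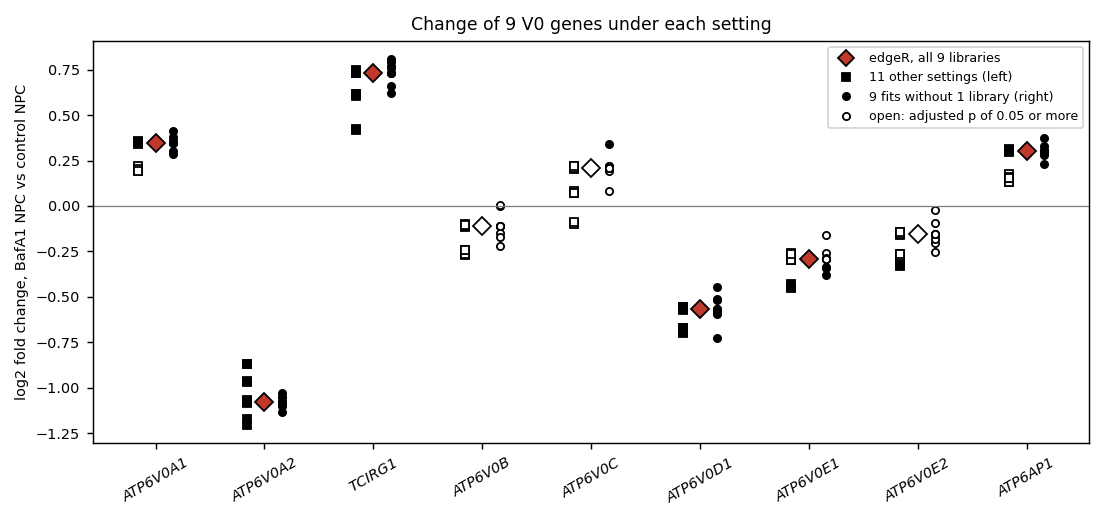
Log2 fold change of BafA1 NPC over control NPC (vertical axis) for 9 V0 genes; diamonds are edgeR on all 9 libraries, squares 11 other settings and circles 9 fits without 1 library, filled where the adjusted p was under 0.05. ATP6V0A2, TCIRG1 and ATP6V0D1 are filled in every setting and fit shown, and the proteolipid genes ATP6V0B and ATP6V0C are the ones that cross 0.

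Control NPC against hESC gives the change of the same genes over the differentiation itself. Of the V0 genes, 5 were higher (ATP6V0A1, ATP6V0D1, ATP6V0E1, ATP6V0E2, ATP6AP1) and 2 lower (ATP6V0A2, ATP6V0A4), against 64.5% of all genes called, 33.0% higher and 31.6% lower. ATP6V0A4 entered the fit only through hESC, so that its fall adds nothing to this count. The median log2 fold change of the 10 genes was 0.49, against 0.03 over all genes tested. It includes ATP6V0A4, and among the other V0 genes the middle value was that of ATP6V0D1, 0.72. With GC and length trends removed 8 were higher, since ATP6V0B, ATP6V0C and TCIRG1 joined them. The 33.0% of all genes belongs to the fit without that step.

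ATP6V0E2, the gene of the e2 isoform, had the largest rise among these 5. It had 98.3, 80.4 and 71.5 CPM in control NPC, against 31.0, 30.1 and 27.3 CPM in hESC. The groups lay far apart, with a log2 fold change of 1.50 ± 0.12, 2.83-fold higher (edgeR, adjusted p = 3.20e-07). Its partner ATP6V0E1 rose less, with 85.4, 82.6 and 76.5 CPM in control NPC, against 49.0, 48.4 and 45.4 CPM in hESC (log2 fold change 0.78 ± 0.11, edgeR adjusted p = 5.30e-05).

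ATP6AP1 was 1.89-fold higher, at 88.0 ± 8.63 CPM in control NPC and 46.7 ± 2.15 CPM in hESC (log2 fold change 0.91 ± 0.09, edgeR adjusted p = 1.84e-06). ATP6V0A1 was 1.66-fold higher, at 73.2 ± 4.10 CPM in control NPC and 44.1 ± 0.718 CPM in hESC (0.73 ± 0.09, edgeR adjusted p = 1.29e-05). ATP6V0D1 was 1.64-fold higher, at 61.3 ± 12.7 CPM in control NPC and 37.3 ± 1.61 CPM in hESC (0.72 ± 0.13, edgeR adjusted p = 4.59e-04). In each of these genes every control NPC library lay above every hESC library.

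The falls were in a subunit isoforms. ATP6V0A2 had 28.4, 28.3 and 25.2 CPM in control NPC, against 46.8, 49.9 and 44.8 CPM in hESC, 1.73-fold lower (log2 fold change -0.79 ± 0.09, edgeR adjusted p = 7.77e-06). ATP6V0A4 had 5 counts over the 3 control NPC libraries, against 189 counts over the 3 hESC libraries, 33.2-fold lower with an exact 95% interval of 14.0 to 103 that covers counting error only. The reads of the overlapping gene TMEM213 averaged 0.254 ± 0.0916 CPM in hESC, with no count in control NPC.

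TCIRG1, ATP6V0B and ATP6V0C did not pass the test. TCIRG1 averaged 14.4 ± 1.98 CPM in control NPC and 15.9 ± 1.84 CPM in hESC (log2 fold change -0.15 ± 0.13, edgeR adjusted p = 0.327), and the value was 0.31 with GC and length trends removed (edgeR adjusted p = 0.0334). ATP6V0C averaged 102 ± 18.4 CPM in control NPC and 111 ± 4.62 CPM in hESC (-0.11 ± 0.11, edgeR adjusted p = 0.400), which became 0.01 without control replicate 3 and 0.36 with the trends removed (edgeR adjusted p = 0.00718). ATP6V0B averaged 67.8 ± 10.4 CPM in control NPC and 56.3 ± 2.43 CPM in hESC (0.27 ± 0.12, edgeR adjusted p = 0.0674), and it passed the test without control replicate 3 (0.38, edgeR adjusted p = 0.0122) and with the trends removed (0.64, edgeR adjusted p = 1.27e-04). Control replicate 3, the library with the lowest GC correlation, stood below the mean of the other control libraries for 8 of the 9 V0 genes other than ATP6V0A4, by 31.3% for ATP6V0D1, 24.9% for ATP6V0C, 21.8% for TCIRG1, 21.7% for ATP6V0B and 13.9% for ATP6AP1. For ATP6V0E2 the gap lay between those of ATP6V0B and ATP6AP1. It was 11.1% below for ATP6V0A2, 8.94% below for ATP6V0E1 and 2.00% above for ATP6V0A1, whose transcripts hold 45.1%, 46.8% and 49.4% GC. ATP6V0D1, with the largest gap, holds 57.0% GC. ATP6V0B, ATP6AP1, ATP6V0E2, ATP6V0C and TCIRG1, with smaller gaps, hold 59.1%, 59.5%, 61.9%, 65.1% and 65.2%. The part of GC content in these gaps was not tested.

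**Figure D4:**
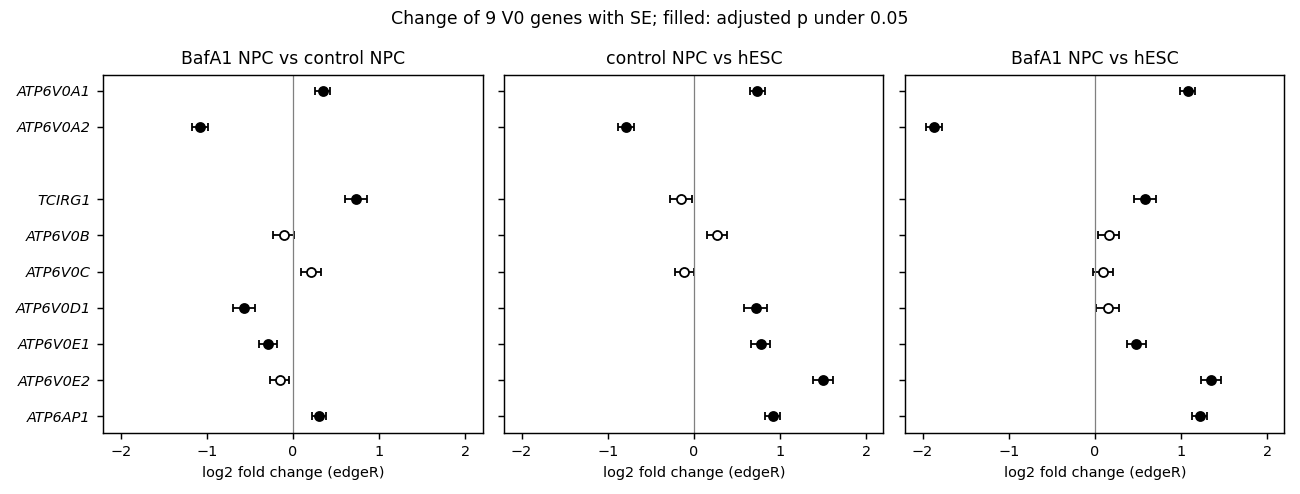
Log2 fold changes (horizontal axis) with SE for 9 V0 genes in the 3 comparisons, filled where the edgeR adjusted p was under 0.05; ATP6V0A4 is left out because it lies near the counting floor in the progenitors. ATP6V0A1 and ATP6AP1 lie right of 0 and ATP6V0A2 left of 0 in every panel, whereas ATP6V0D1 is at -0.57 in BafA1 NPC against control NPC and at 0.72 in control NPC against hESC.

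BafA1 NPC against hESC shares its libraries with both comparisons above. Here 5 V0 genes were higher (ATP6V0A1, TCIRG1, ATP6V0E1, ATP6V0E2, ATP6AP1) and 2 lower (ATP6V0A2, ATP6V0A4), against 70.4% of all genes called, 35.5% higher and 34.8% lower. Again ATP6V0A4 entered only through hESC. The median log2 fold change was 0.32, against 0.02 over all genes. It includes ATP6V0A4, and among the other V0 genes the middle value was that of ATP6V0E1, 0.48. The log2 fold changes were -1.87 ± 0.09 for ATP6V0A2, 1.35 ± 0.12 for ATP6V0E2, 1.22 ± 0.09 for ATP6AP1 and 1.08 ± 0.09 for ATP6V0A1. TCIRG1 stood 0.58 ± 0.13 higher (edgeR adjusted p = 0.00146).

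ATP6V0D1 was called lower in BafA1 NPC than in control NPC and higher in control NPC than in hESC. In BafA1 NPC it averaged 41.4 ± 2.89 CPM, against 37.3 ± 1.61 CPM in hESC, a log2 fold change of 0.15 ± 0.13 that did not pass the test (edgeR adjusted p = 0.328). With GC and length trends removed the difference was 0.34 and called (edgeR adjusted p = 0.0201), and 8 V0 genes were then higher in BafA1 NPC than in hESC, since ATP6V0B (0.37, edgeR adjusted p = 0.00529) and ATP6V0C (0.26, edgeR adjusted p = 0.0337) were called too; with the replicate block as well, the number was 7. The 35.5% of all genes called higher in this comparison belongs to the fit with neither step. ATP6V0A4 had 6 counts over the BafA1 libraries, against 189 over the hESC libraries, 28.9-fold lower (exact 95% interval 13.0 to 79.8).

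Since FPKM is per length, the isoforms could be set against each other within a library (the plot of isoform shares). ATP6V0A1 held 70.1 ± 2.04% of the summed a subunit FPKM in BafA1 NPC, 67.9 ± 1.43% in control NPC and 45.5 ± 0.375% in hESC. ATP6V0A2 held 6.35 ± 0.616% in BafA1 NPC, 16.5 ± 1.20% in control NPC and 31.7 ± 1.60% in hESC, with no overlap between any of the groups. TCIRG1 held 23.5 ± 2.32% in BafA1 NPC, 15.6 ± 0.355% in control NPC and 21.5 ± 0.765% in hESC.

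Between BafA1 NPC and control NPC the shares of ATP6V0A2 and TCIRG1 did not overlap, and those of ATP6V0A1 did. The sum over the a subunit genes was 26.3 ± 3.25 FPKM in BafA1 NPC, 23.5 ± 0.961 FPKM in control NPC and 20.2 ± 0.259 FPKM in hESC. The ratio of ATP6V0A1 to ATP6V0A2 FPKM was 11.1 ± 0.957 in BafA1 NPC, 4.14 ± 0.388 in control NPC and 1.44 ± 0.0830 in hESC. That of TCIRG1 to ATP6V0A2 was 3.75 ± 0.678, 0.952 ± 0.0661 and 0.678 ± 0.0559 in the same groups.

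Of the e subunit FPKM, ATP6V0E2 held 37.1 ± 2.60% in BafA1 NPC, 34.2 ± 2.10% in control NPC and 24.2 ± 0.483% in hESC, so that the NPC groups overlapped and both lay above hESC. Of the proteolipid FPKM, ATP6V0C held 64.0 ± 2.86% in BafA1 NPC, 58.9 ± 0.260% in control NPC and 65.7 ± 0.0667% in hESC. The ratio of ATP6V0C to ATP6V0D1 FPKM was 4.30 ± 0.257 in BafA1 NPC, 2.52 ± 0.163 in control NPC and 4.45 ± 0.107 in hESC, and control NPC was the group that stood apart. No test was made on these shares and ratios.

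**Figure D5:**
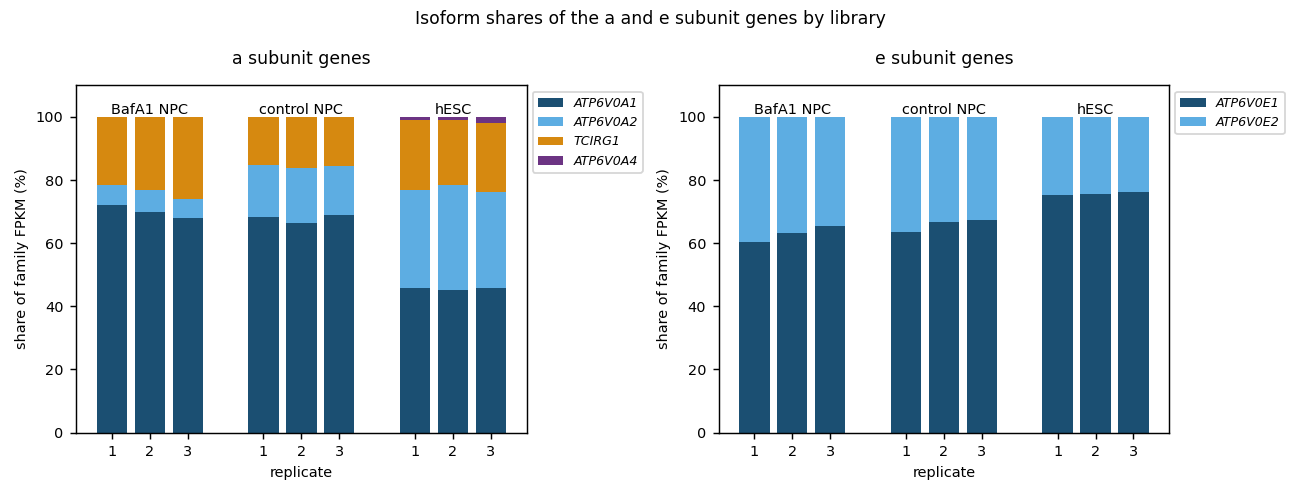
Share of the summed FPKM (vertical axis, percent) held by each a subunit gene (left) and each e subunit gene (right) in every library of BafA1 NPC, control NPC and hESC. The ATP6V0A2 segment averages 6.35% in BafA1 NPC, 16.5% in control NPC and 31.7% in hESC, and the ATP6V0E2 segment is smallest in hESC.

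Other V0 genes outside the 10 were few. ATP6V0D2, the d2 isoform gene known from osteoclasts and kidney, had 8, 5 and 19 counts in BafA1 NPC and no count in any control NPC or hESC library. It did not pass the filter on low counts. Its mean over BafA1 libraries was 0.179 CPM, scaled by library total alone without TMM. That was at least 3.16-fold higher than the floor of 3 counts per library in control NPC. Without the filter it enters the fit only through the BafA1 libraries, so that no p-value is given. RNASEK, a small V0 component, was higher in BafA1 NPC at 89.6 ± 16.6 CPM, against 67.3 ± 0.266 CPM in control NPC (log2 fold change 0.41 ± 0.12, edgeR adjusted p = 0.0166). ATP6AP2, the accessory partner of ATP6AP1, averaged 85.0 ± 9.72 CPM in BafA1 NPC and 88.6 ± 3.20 CPM in control NPC (-0.06 ± 0.09, edgeR adjusted p = 0.632).

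The V1 genes encode the cytosolic part of the pump. Of 12 tested, 4 were higher in BafA1 NPC than in control NPC and 8 did not pass the test, with a median log2 fold change of 0.26; over all genes tested 20.8% were higher and 20.7% lower. ATP6V1H, a regulatory subunit, was at 0.57 ± 0.08 (edgeR, adjusted p = 2.21e-04), ATP6V1D, part of the central stalk, at 0.46 ± 0.11 (edgeR, adjusted p = 0.00462) and ATP6V1A, the catalytic subunit, at 0.35 ± 0.10 (edgeR, adjusted p = 0.0132). The count of higher V1 genes was 1, with 1 lower, by limma on log2(FPKM + 1), 7 without BafA1 replicate 1 and 2 without BafA1 replicate 3. The summed FPKM of the 10 V0 genes over that of the V1 genes was 0.708 ± 0.0773 in BafA1 NPC, 0.824 ± 0.135 in control NPC and 0.928 ± 0.0315 in hESC, and the NPC groups overlapped.

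Assembly factors and regulators of the pump went both ways, with 4 higher and 4 lower of 15, against 20.8% higher and 20.7% lower of all genes. OSTM1, the partner of the lysosomal chloride transporter CLCN7, fell by 0.86 ± 0.11 on the log2 scale (edgeR, adjusted p = 1.12e-04), and TMEM199, a V0 assembly factor, fell by 0.69 ± 0.09 (edgeR, adjusted p = 1.71e-04). TM9SF4, known to bind the V1 sector, rose by 0.56 ± 0.09 (edgeR, adjusted p = 4.08e-04). Of 16 MiT/TFE factors and regulators, 4 were higher and 3 lower, against the same background. The 3 with the smallest p were RRAGD, a Rag GTPase of lysosomal nutrient sensing (0.69 ± 0.11), TFE3, a factor of that family (0.60 ± 0.11), and FLCN, which acts on Rag GTPases (0.52 ± 0.10), with edgeR adjusted p = 3.78e-04, 9.55e-04 and 0.00141. With limma on log2(FPKM + 1) 2 of this list were higher, and by library size alone 5 were lower.

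Of 29 lysosomal hydrolases and membrane proteins tested, 13 were higher and 1 lower, against 20.8% higher and 20.7% lower over all genes, with a median log2 fold change of 0.24. Without overlap between the libraries of the groups, 14 were higher and 1 lower in CPM, against 24.1% and 25.1% of all genes. In FPKM 6 were higher and 7 lower, against 16.7% and 32.0% of all genes. GAA, the acid alpha-glucosidase, was at 0.97 ± 0.08 (edgeR, adjusted p = 1.16e-05), MANBA, the beta-mannosidase, at 0.87 ± 0.11 (edgeR, adjusted p = 8.49e-05) and PSAP, the saposin precursor, at 0.65 ± 0.09 (edgeR, adjusted p = 1.74e-04). The counts depended on scaling, with 7 higher and 6 lower by library size alone and 8 higher without control replicate 2; without control replicate 3 or BafA1 replicate 3, and with GC and length trends removed, 3 were lower. The limma fit on log2(FPKM + 1) called 5 of them higher and 3 of them lower. Of 10 pH transporters of the plasma membrane and organelles, 3 were higher and 4 lower, against that background; the sodium-proton exchanger gene SLC9A7 was among the higher (0.51 ± 0.10, edgeR adjusted p = 0.00205). The number of higher pH transporters was 1 without BafA1 replicate 3 or control replicate 2 and by library size alone, and the number lower was 2 with GC and length trends removed. With each of the 3 limma fits it was 0 higher, and 1 at an unadjusted p under 0.05; SLC9A7 was then at 0.23 with log2(FPKM + 1) (limma adjusted p = 0.0920).

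Over the differentiation, in control NPC against hESC, 8 of the 12 V1 genes were higher and 2 lower with a median log2 fold change of 0.56, and 17 of the 29 lysosomal genes were higher and 5 lower (3 lower with limma on log2(FPKM + 1)) with a median of 0.35. The V1 genes include ATP6V1B1, at 0.372 CPM in control NPC and 0.0256 CPM in hESC. It had the largest log2 fold change of that list, 3.65, and passed the filter only through the NPC groups. Its rise adds nothing to the count of V1 genes. The V0 genes, at 5 higher and 2 lower of 10, had a median of 0.49. The lower genes include ATP6V0A4, which entered the fit only through hESC, so that its fall adds nothing to this count. Among the other V0 genes the middle value was that of ATP6V0D1, 0.72. Of all genes 64.5% were called in this comparison, 33.0% higher and 31.6% lower.

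The genes whose pattern over the 9 libraries was most like that of ATP6V0A1, among 12470 genes with a mean of at least 5 CPM, were NPEPPS, PLEKHA7 and MAST4, with Pearson r of 0.997, 0.995 and 0.995 on log2(CPM + 1). Those most like ATP6V0C were BCAR1, STAT3 and TAX1BP3, with r of 0.943, 0.935 and 0.931. The values describe likeness in these libraries, which form 3 groups, and share depth and base composition with the genes compared.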

How the data were processed

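Per the labels' protocols, a TruSeq stranded kit for mRNA was used on total RNA. The submitters' processing notes name Trimmomatic for trimming and GRCh38 as the build, and no source used here gives the aligner, the counter or its use of strand. The authors deposited a table of raw integer read counts for each gene and FPKM values (per transcript length and library size), per the file headers. All 18 value columns were matched to a sample by name, leaving 0 unused.

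Counts were fitted with edgeR 4.0.16 (R 4.3.3) on all 9 libraries with TMM scaling and filterByExpr, which kept 20685 genes. The quasi-likelihood test was two-sided, with Benjamini-Hochberg adjustment over all genes tested, and a gene was called at an adjusted p under 0.05. The SE is the log2 fold change divided by the square root of F. TMM sets the trimmed mean of all genes to no change, so that absolute amounts of RNA are not measured. The script was tested on simulated data. Other settings were RLE size factors, library size alone, DESeq2 1.42.0, no filter, only the compared groups, a replicate block, removal of GC and length trends per library (84.5% of tested genes had a GC value, among them all 10 V0 genes), limma 3.58.1 on log2(FPKM + 1) or log2(FPKM + 0.1), limma on genes with FPKM of at least 1 in 3 libraries, and each library left out.

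Coordinates and promoters are those of RefSeq (GRCh38.p14), 1-based; GC content is from GENCODE release 29 transcripts. Intervals and floors cover counting error only.

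The V0 genes and the companion lists were chosen with earlier results of these data known. The text names all 10 V0 genes, up to 3 called genes of each companion list with the smallest adjusted p for BafA1 NPC against control NPC, the 3 genes most like ATP6V0A1 and ATP6V0C, and POU5F1, NANOG, SOX1, LMX1A and FOXA2 as markers. ATP6V0D2, ATP6AP2, CHKA, TMEM213, ATP6V0E2-AS1, COL1A1, TAGLN, LUM, SOX3, PAX6, HES5, LIN28A, DPPA4 and DNMT3B were named outside that rule, after their values were seen. So were ATP6V1B1 and MSX1. Some genes of the companion lists are not reported here. Deviations of same-numbered libraries from their group means correlated at -0.0554 to -0.0180 between BafA1 and control NPC, at -0.00830 to 0.0433 between BafA1 NPC and hESC and at 0.0208 to 0.0877 between control NPC and hESC, so that the numbers were not taken to pair libraries.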

Additional observations from a re-analysis of the deposited data

How the results depend on the processing

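In BafA1 NPC against control NPC, ATP6V0A2, TCIRG1 and ATP6V0D1 were called in the same direction under all 11 other settings and all 9 fits without 1 library. The number of V0 genes called higher was 1 by library size alone and 1 with each of the limma fits, and over 9 fits without 1 library it was 2 to 4, with 2 to 3 lower. Over all genes, limma called 2509, 2577 and 2483 higher (pseudocount 1, pseudocount 0.1, and FPKM minimum) and the edgeR fit 4309. Scaling by library size alone shifted the median log2 fold change of all genes by -0.12 in this comparison and by 0.10 in control NPC against hESC, and 35.3% of called genes were then higher in BafA1 NPC, against 50.2% with TMM and 32.2% with limma on log2(FPKM + 1). With GC and length trends removed, ATP6V0C was at -0.10 in BafA1 NPC against control NPC (-0.0905 with the replicate block), and in control NPC against hESC TCIRG1 was at 0.31 (0.32) and ATP6V0C at 0.36 (0.35). That setting called 8 V0 genes higher in control NPC against hESC, with and without the replicate block, and 8 in BafA1 NPC against hESC; there the block added to it gave 7, since ATP6V0E1 lost its call (0.24, edgeR adjusted p = 0.0743). The share of all genes called higher with these trends removed is not given here. Without 1 library, the log2 fold change of ATP6V0B in BafA1 NPC against control NPC ran between -0.22 and 0.00442 and that of ATP6V0C in control NPC against hESC between -0.25 and 0.0149. The FPKM minimum removed ATP6V0A4, which left 1 V0 gene lower in both comparisons with hESC. The replicate block alone, which rests on numbers alone, ended the call of ATP6V0E1 in BafA1 NPC against control NPC (edgeR adjusted p = 0.0641) and no other call of a V0 gene. On CPM, which is not per length, ATP6V0A1 held 63.7% of the a subunit sum in control NPC and 40.7% in hESC. ATP6V0A2 held 10.0% in BafA1 NPC, 23.8% in control NPC and 43.6% in hESC, and TCIRG1 18.4%, 12.5% and 14.7%. On that scale ATP6V0E1 held 46.9%, 49.6% and 61.8% of the e subunit sum and ATP6V0E2 53.1%, 50.4% and 38.2%. The cause of these shifts was not tested beyond the change of scale or of genes itself. Depth limits ATP6V0A4 and ATP6V0D2, which lie near the floor in at least 1 group.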
